A study of Mus musculus with 4 samples.

Results

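Interferon GTPases of the IRG and GBP families were followed across the cell classes of the mouse incisor in 9 genes, namely the IRG genes Igtp, Irgm1, Irgm2, Iigp1 and Tgtp2 and the GBP genes Gbp2, Gbp3, Gbp6 and Gbp7. They are 9 of 32285 gene rows in the files and were found by symbol. The 9 were chosen by earlier comparisons of Din-KO with WT in these same libraries, so the values by genotype are given as a description and carry no test. The differences between cell classes did not choose them and were tested.

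Proximal tissue of the lower incisor of mice aged 15 days was dissociated, and single cells were sequenced with a 10x Genomics 3' kit, which tags each captured transcript with a unique molecular identifier (UMI) and reads its 3' end. WT and Din-KO gave 2 libraries each. Din (4930453N24Rik) is a predicted gene, and the Din-KO allele (tm1b) comes from 1 gene-trap targeted ES cell clone (tm1a) whose Neo cassette and exon 2 were taken out by crossing to a germline Cre. The knockout therefore affected every cell type, and the number of mice behind each library was not found in the labels or methods.

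Interferons bind receptors that switch on JAK kinases, STAT proteins and IRF factors, and these raise the transcription of IRG and GBP genes. The GTPases they encode assemble on the membranes of vacuoles that hold intracellular pathogens. Igtp (Irgm3), Irgm1 and Irgm2 regulate this process on the cell's own membranes, Iigp1 (Irga6) and Tgtp2 (Irgb6) are effectors that coat and break the vacuole, and the GBPs act beside them and in the inflammasome response. In a tissue without infection these genes serve as a readout of interferon signaling.

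The stretches before the transcription start are shown because these genes share motifs there. The RefSeq table of promoters (GRCm38.p6) held 7 of the 9 genes. The 120 bases before the start were read 5′ to 3′ along the gene. They lie at chr11:58199436-58199555 (Igtp, plus strand), chr11:58214857-58214976 (Irgm2, plus), chr11:49064213-49064332 (Tgtp2, minus), chr11:48871421-48871540 (Irgm1, minus), chr3:142620543-142620662 (Gbp2, plus), chr3:142559924-142560043 (Gbp3, plus, the first of 2 starts) and chr3:142530216-142530335 (Gbp7, plus). Capitals mark the motifs GAAANNGAA, the core bound by IRF factors in interferon-stimulated response elements, and TTCNNNGAA, the STAT-binding gamma-activated sequence (GAS), both searched on either strand.
Igtp: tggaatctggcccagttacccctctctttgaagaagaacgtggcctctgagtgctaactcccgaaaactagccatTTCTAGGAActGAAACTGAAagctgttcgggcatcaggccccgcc
Irgm2: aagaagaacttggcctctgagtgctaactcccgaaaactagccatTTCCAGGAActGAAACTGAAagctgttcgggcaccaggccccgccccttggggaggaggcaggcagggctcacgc
Tgtp2: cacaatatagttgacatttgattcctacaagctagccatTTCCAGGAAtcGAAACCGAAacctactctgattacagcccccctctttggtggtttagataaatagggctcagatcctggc
Irgm1: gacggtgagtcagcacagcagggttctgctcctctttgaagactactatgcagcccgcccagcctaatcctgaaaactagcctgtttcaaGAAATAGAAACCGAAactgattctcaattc
Gbp2: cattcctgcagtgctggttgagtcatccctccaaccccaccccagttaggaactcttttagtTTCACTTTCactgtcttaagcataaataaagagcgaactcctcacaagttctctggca
Gbp3: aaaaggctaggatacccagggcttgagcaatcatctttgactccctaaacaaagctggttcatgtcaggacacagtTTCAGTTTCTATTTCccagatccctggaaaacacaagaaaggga
Gbp7: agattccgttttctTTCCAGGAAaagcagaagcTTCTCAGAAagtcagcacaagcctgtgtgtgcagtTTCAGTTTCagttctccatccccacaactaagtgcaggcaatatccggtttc

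All 7 genes held GAAANNGAA in these 120 bases, against 3.11% of 32851 promoters. Of the 8 promoter entries of these genes, that of the second Gbp3 start held neither motif. In the 4 IRG genes it lay on the strand of the gene and in the 3 GBP genes on the other strand. Irgm1 and Gbp3 each held 2 overlapping copies. TTCNNNGAA was found in 4 of the 7 genes (Igtp, Irgm2, Tgtp2 and Gbp7), against 3.15% of all promoters. In Igtp, Irgm2 and Tgtp2 the starts of the 2 motifs were 11 bases apart, with the GAS first. That spacing was noticed in these sequences and then counted. It was found in 5 of the 32851 promoters, those of Igtp, Irgm2 and Tgtp2 among them. Around the motifs the Igtp and Irgm2 stretches are nearly alike, so these genes are not separate finds. Matching letters were not tested for binding.

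In the GENCODE annotation of GRCm38 all 9 are protein-coding genes. The starts used above are those of RefSeq. By GENCODE the stretches of Irgm1 and Irgm2 lie inside the genes, and those of Gbp2 and Gbp3 reach into them. Gbp2, Gbp3 and Gbp7 lie within 107.7 kb of each other on chromosome 3, and Irgm1, Tgtp2, Igtp and Irgm2 on chromosome 11. Some counts are uncertain, since reads that fit more than 1 gene are not counted. Every window of 91 bases in the last 500 bases of the Tgtp2 transcripts was also found in Tgtp1. For Gbp6 65.4% of such windows were found in Gbp10 or Gm43302, for Gbp3 0.375% were found in Gbp7, and in the other 6 genes none was shared. Igtp and Irgm2 overlap on 1 strand.

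Barcodes needed 1000 detected genes, with no more than 10% of UMIs from mitochondrial and 3% from hemoglobin genes. By this, 11310 of 20502 barcodes were kept, between 1272 and 4575 per library, with a median of 8016 to 11587.5 UMIs per cell and 32198098 to 54348039 UMIs per library over all barcodes. At most 8 kept barcodes of a library occurred in another. The din row had 849 and 428 UMIs in WT and 513 and 335 in Din-KO mesenchyme-like cells (35.6, 28.1, 21.9 and 27.95 UMIs per 1000000 UMIs of the class and library, called CPM). Those are 3' counts, and the deleted exon 2 of 3 is not the 3' exon. The paper states that the Din-KO allele also carries a LacZ reporter under the Din promoter. Whether transcripts run past it to the 3' exon was not tested, so these counts do not settle the genotype. Libraries differed in sex. At least 3 Xist UMIs and no UMI of a Y gene were found in 98.5% and 95.3% of WT but 37.0% and 42.9% of Din-KO mesenchyme-like cells. Library make-up differed by replicate number too, with 1663 and 1695 dental pulp-like cells in replicate 1 but 168 and 141 in replicate 2 of WT and Din-KO. Library names in the labels follow another scheme in replicate 1 than in replicate 2, and what the schemes mark is not stated.

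Cells were clustered without the 9 genes and the other interferon genes, and clusters were named from marker lists. Mesenchyme-like cells (5945), endothelium-like (746), macrophage-like (1369), epithelium-like (580) and B-like cells (595) had at least 20 cells in each library. An unnamed cluster of 1208 cells, led by Vcan, scored highest as mesenchyme but is not among the mesenchyme-like cells. The name endothelium-like was given by 9 endothelial markers, so their level there is a description and no check of the name. All 9 were detected in each library there, at 7749 to 9786 CPM summed, against 19.6 to 44.2 CPM in mesenchyme-like cells. To ask where the GTPases are expressed, UMIs were summed per library and class, and each class was set against mesenchyme-like cells with the library as a block.

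Over all 4 libraries, the 9 GTPases were called higher in endothelium-like and in macrophage-like than in mesenchyme-like cells. This fit pools WT with the Din-KO libraries whose high values chose the genes, and for Tgtp2 the endothelial direction came from Din-KO alone, since its WT mean was 0.958 CPM in endothelium-like and 1.75 CPM in mesenchyme-like cells. The WT libraries alone, given further on, called 5 of 8 members higher in endothelium-like and 6 of 8 higher in macrophage-like cells. All 9 were lower in epithelium-like cells, which include the cells that lay down enamel. There the WT libraries alone called 6 of 8 lower. In B-like cells only Irgm1 and Gbp3 were higher, while the WT libraries alone called 0 of 8 higher. In all, 20 of the 36 pairs of a member and a class were higher and 9 were lower. These counts include Tgtp2, which did not pass the filter on low counts in WT alone. The same test called 25.2% of 13419 genes higher in endothelium-like cells, 28.5% higher in macrophage-like cells, 23.4% lower in epithelium-like cells and 25.2% higher in B-like cells (24.6% of all pairs higher and 30.5% lower). Calls have an adjusted p under 0.05 in edgeR (quasi-likelihood test, Benjamini-Hochberg adjustment over all genes) with 4 libraries.

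Among the regulators, Irgm1 stood 1.87 higher on the log2 scale in endothelium-like cells (standard error 0.21) and 2.20 higher in macrophage-like cells (standard error 0.21). In WT alone it was 1.65 higher (adjusted p = 0.01549 from edgeR) and 2.29 higher (adjusted p = 0.002099 from edgeR). It had the largest positive difference in B-like cells, at 1.29 (standard error 0.24), against 1.10 (not called) in WT alone. Igtp and Irgm2 were 1.79 higher in endothelium-like cells, against 0.55 and 1.02 (neither called) in WT alone, and 2.15 and 2.16 higher in macrophage-like cells. Among the effectors, Iigp1 had the largest difference in endothelium-like cells, at 3.28 (standard error 0.48). In WT alone it was 2.72 higher there (adjusted p = 0.02211 from edgeR). Its value in epithelium-like cells was the lowest of the 9, at -4.05 (standard error 0.78), against -3.10 (not called) in WT alone. Tgtp2 had the smallest difference in endothelium-like cells, at 1.57 (standard error 0.49), which rests on Din-KO. Of the GBPs, Gbp7 was 2.88 higher in endothelium-like and 3.20 higher in macrophage-like cells, and Gbp3 was 2.85 and 1.60 higher. Gbp2 was 2.11 higher in endothelium-like and 0.86 higher in macrophage-like cells, the smallest macrophage value of the 9. Median differences over the 9 were 2.11 for endothelium-like cells (-0.066 over all genes), 2.16 for macrophage-like cells (-0.081), -0.49 for B-like cells (-0.25) and -3.36 for epithelium-like cells (-0.031). Cells of a class and RNA per cell are pooled in these sums.

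**Figure D1:**
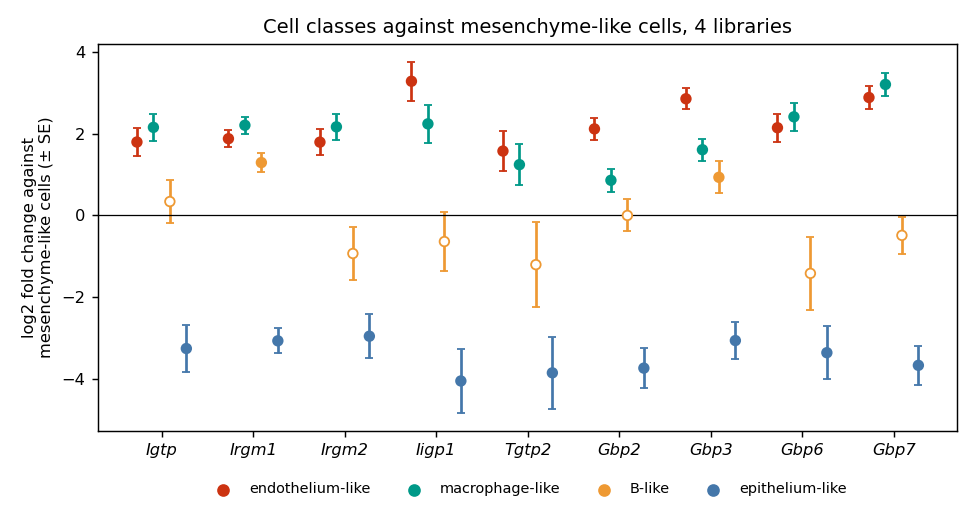
Log2 fold change of each GTPase in 4 cell classes against mesenchyme-like cells (y axis, points with standard errors; filled where the adjusted p of edgeR is under 0.05), with all 4 libraries, Din-KO included. Endothelium-like and macrophage-like points all lie above 0 and epithelium-like points all below, from -4.05 to -2.95.

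The 4 libraries include Din-KO, where the genes were chosen for being high, so the same fit was made in the WT libraries alone. There 8 members passed the filter on low counts (all but Tgtp2). In endothelium-like cells 5 of the 8 were higher by edgeR, against 13.1% of 13429 genes. They were Iigp1 at 2.72 on the log2 scale (standard error 0.67), Gbp3 at 2.49 (0.43), Gbp7 at 2.42 (0.43), Gbp2 at 1.98 (0.40) and Irgm1 at 1.65 (0.39), while Gbp6 at 1.70 (0.72), Irgm2 and Igtp were not called. In macrophage-like cells 6 of the 8 were higher, against 17.5% of all genes. Gbp7 had the largest difference there, at 3.47 (standard error 0.44), followed by Gbp6 at 2.71, Irgm2 at 2.32, Irgm1 at 2.29, Igtp at 2.12 and Gbp3 at 1.77, while Iigp1 at 1.88 and Gbp2 at 0.25 were not called. In epithelium-like cells 6 of the 8 were lower, against 11.9% of all genes (all but Iigp1 and Gbp6). In B-like cells 1 of the 8 was lower, against 26.4% of all genes, and none was higher. Iigp1 was lower in WT B-like cells, where both libraries had 0 UMIs. That leaves a floor of 3 UMIs, or 2.87 CPM in replicate 1, against 16.8 CPM in mesenchyme-like cells of the same library. In replicate 2, B-like cells had fewer UMIs (1021514 against 1045786), so the floor was higher. Mesenchyme-like cells were at 2.63 CPM there, below that floor, so the difference rests on replicate 1.

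Epithelium-like cells held very little of any member. WT replicate 2 had 0 UMIs of the 9 genes in 3507808 UMIs, and the other three libraries had 8.10 to 9.63 CPM in sum, from 25 to 43 UMIs. No member passed the filter on low counts within that class alone. The make-up of the class differed by library. Its 10 markers, enamel genes among them, summed to 34730 and 351700 CPM in WT replicates 1 and 2. The cluster led by Amelx held 23 of 145 and 89 of 122 cells there. The part of this difference in the low levels was not tested. With each cell thinned to 2000 UMIs, 0% to 2.80% of epithelium-like cells held a UMI of any member.

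**Figure D2:**
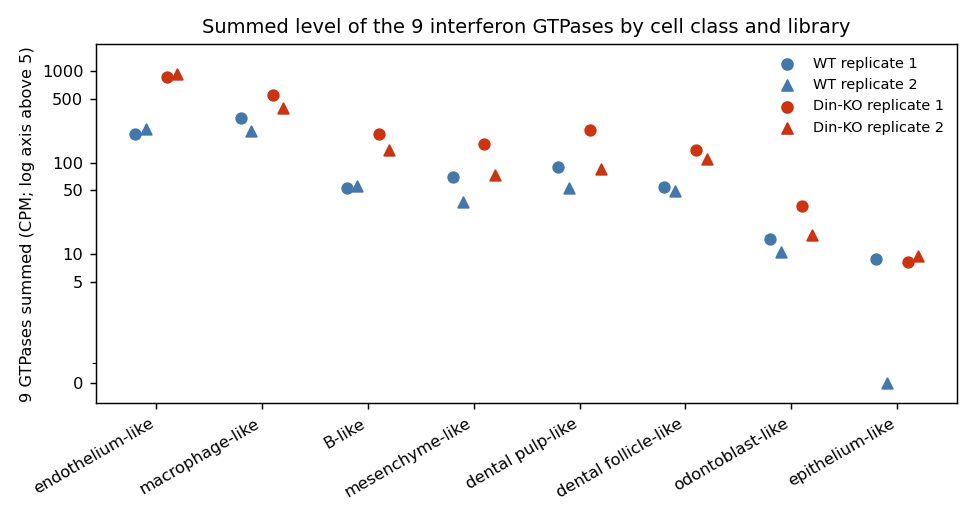
Summed CPM of the 9 GTPases (y axis, logarithmic above 5) in each cell class, 1 point per library. Endothelium-like cells of Din-KO hold the highest values, 871 and 944, and epithelium-like cells the lowest.

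Among the 5 named classes compared, endothelium-like cells showed the widest gap between genotypes in the summed level. In sum the 9 GTPases were at 206 and 234.5 CPM in the WT libraries and at 871 and 944 CPM in the Din-KO libraries, a ratio of 4.12 between means. All 9 members were above both WT libraries in both Din-KO libraries, where 11.9% of 11103 genes were. Since that contrast chose the members, nothing is read from the count.

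Tgtp2 was at 1.24 and 0.680 CPM in WT and 29.6 and 33.1 CPM in Din-KO, from 4 and 1 against 115 and 53 UMIs. Its fitted log2 fold change was 4.85 (standard error 0.44), which rests on those few WT counts. Iigp1, the other effector, was at 44.5 and 53.7 CPM in WT and 332 and 373 CPM in Din-KO, a log2 fold change of 2.87 (standard error 0.24). Neither effector overlapped between the genotypes.

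Among the regulators, Igtp went from 5.57 and 8.84 CPM in WT to 56.7 and 64.2 CPM in Din-KO (log2 fold change 3.15, standard error 0.30). Irgm2 was at 8.04 and 6.80 CPM in WT and 33.75 and 37.4 CPM in Din-KO (2.24, standard error 0.30). Irgm1 was at 46.1 and 43.5 CPM in WT and 107 and 96.7 CPM in Din-KO (1.20, standard error 0.23). The 3 regulators thus differed in size, and replicates lay close to each other within a genotype.

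The GBP genes had log2 fold changes of 2.83 (Gbp6, standard error 0.40), 2.02 (Gbp3, 0.25), 1.45 (Gbp7, 0.22) and 1.10 (Gbp2, 0.28). Gbp6 was at 2.78 and 3.40 CPM in WT and 19.6 and 23.7 CPM in Din-KO. Gbp3 was at 19.2 and 21.75 CPM in WT and 73.7 and 89.8 CPM in Din-KO. Gbp2, the member with the smallest fold change here, was at 15.5 and 22.4 CPM in WT and 36.6 and 41.8 CPM in Din-KO.

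Markers of other cell types were compared in the same cells. Macrophage markers summed to 1719 and 834 CPM in WT and to 1618 and 688 CPM in Din-KO, so both replicates of Din-KO were lower than the WT library of the same number. T or NK markers summed to 3.40 and 3.40 CPM in WT and to 15.97 and 11.85 CPM in Din-KO, with 8 and 8 of the 10 markers at 0 in WT and 2 and 6 in Din-KO, and monocyte or dendritic markers to 103 and 239 CPM in WT and 241 and 307 CPM in Din-KO. The monocyte or dendritic list holds Vcan and the interferon pathway gene Irf8. It summed to 768 and 351 CPM in WT mesenchyme-like cells, so it does not mark a single cell type. The part of either list in the result was not tested. In Xist cells alone, at least 63 cells per library, the median of the 9 log2 fold changes was 2.12 against 2.24 in all cells, and again no member overlapped. The share over all genes was not counted in Xist cells, so nothing is read from that overlap.

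**Figure D3:**
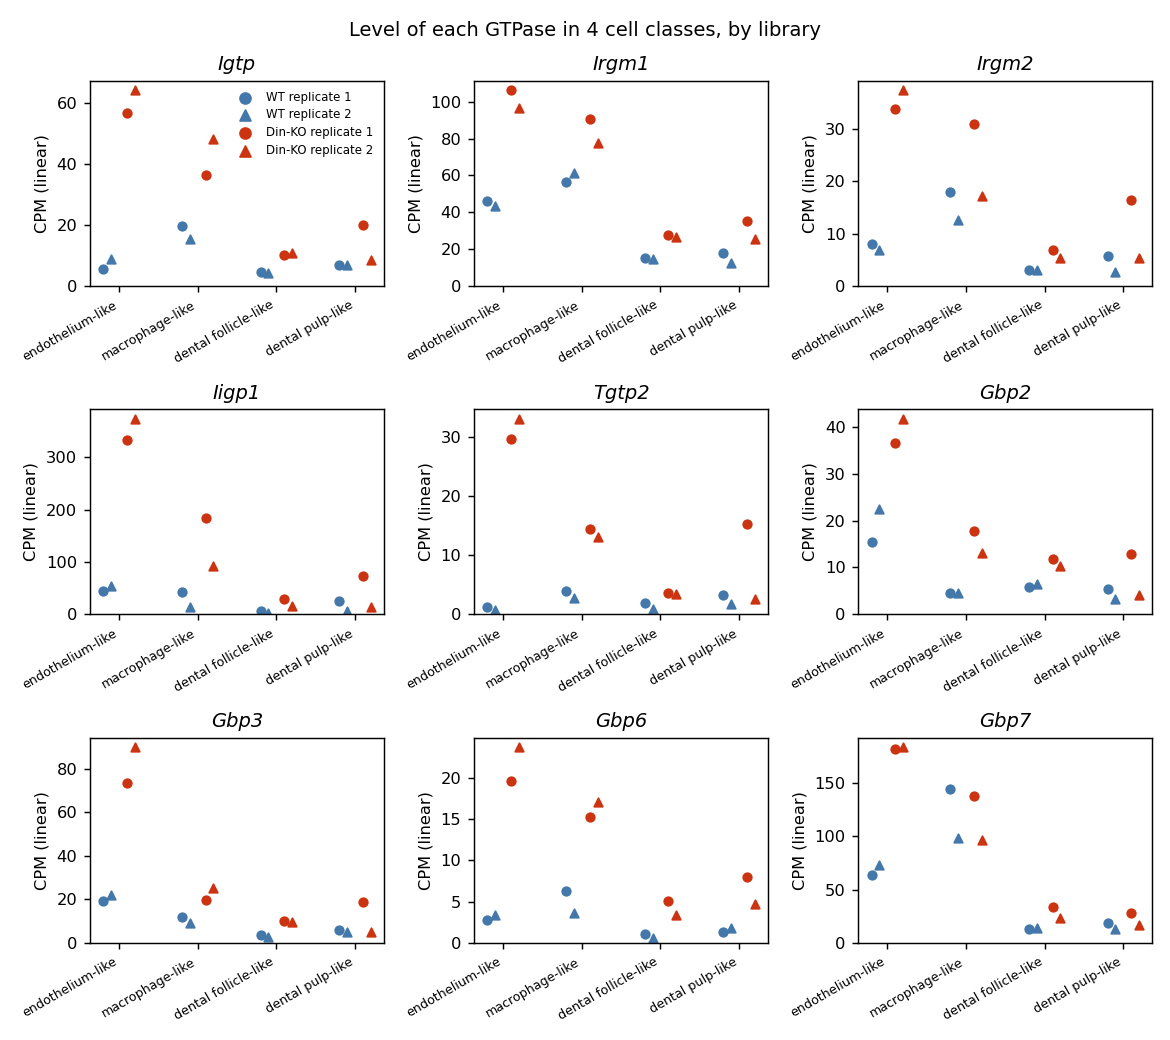
CPM of each GTPase (y axes, linear, each from 0) in endothelium-like, macrophage-like, dental follicle-like and dental pulp-like cells, 1 point per library. Din-KO points lie above WT points for each gene in endothelium-like cells, while Gbp7 points of the genotypes overlap in macrophage-like cells.

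Macrophage-like cells had higher WT levels of most members than endothelium-like cells, and smaller differences between genotypes for all but Gbp2. The log2 fold change of Gbp2 was 1.87 here and 1.10 in endothelium-like cells. In sum the 9 were at 307.5 and 222 CPM in WT and 548 and 401 CPM in Din-KO, a ratio of 1.79. Groups did not overlap for 7 of the 9, where 9.14% of 10873 genes had Din-KO entirely above WT.

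Gbp7 was one of the 2 exceptions, at 145 and 98.8 CPM in WT and 138 and 96.6 CPM in Din-KO, a log2 fold change of 0.023 (standard error 0.34). In endothelium-like cells the same gene was at 63.4 and 73.4 CPM in WT and 182 and 184 CPM in Din-KO. Irgm2 was the other exception, at 18.01 and 12.6 CPM in WT and 31.0 and 17.1 CPM in Din-KO. The difference between the classes was not tested.

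Iigp1 had the largest difference among macrophage-like cells, from 41.95 and 14.4 CPM in WT to 184 and 92.6 CPM in Din-KO (log2 fold change 2.29, standard error 0.55). Tgtp2 was at 4.02 and 2.69 CPM in WT and 14.5 and 13.1 CPM in Din-KO (2.01, standard error 0.45). Gbp2 was at 4.60 and 4.49 CPM in WT and 17.8 and 13.1 CPM in Din-KO (1.87, standard error 0.43). The other four had log2 fold changes from 0.61 (Irgm1) to 1.62 (Gbp6).

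By mean level over the 2 libraries, the class with most of a member, among the 5 named classes compared, changed with genotype. In WT 6 of the 9 were highest in macrophage-like cells and 3 (Iigp1, Gbp2 and Gbp3) in endothelium-like cells. In Din-KO all 9 were highest in endothelium-like cells. T or NK-like cells, too few to enter, had higher means of Igtp (47.4 CPM), Gbp6 (14.8 CPM) and Tgtp2 (9.62 CPM) in WT than macrophage-like cells. Their WT libraries held 17 and 21 cells with 134583 and 169269 UMIs, so few UMIs lie behind these means. The 2 libraries were at 35.5 and 59.4 CPM for Igtp, 0 and 29.5 CPM for Gbp6, and 7.43 and 11.8 CPM for Tgtp2, lower value first. For Irgm1 the Din-KO values were 107 and 96.7 CPM in endothelium-like against 90.8 and 77.5 CPM in macrophage-like cells, and for Irgm2 they were 33.75 and 37.4 CPM against 31.0 and 17.1 CPM.

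**Figure D4:**
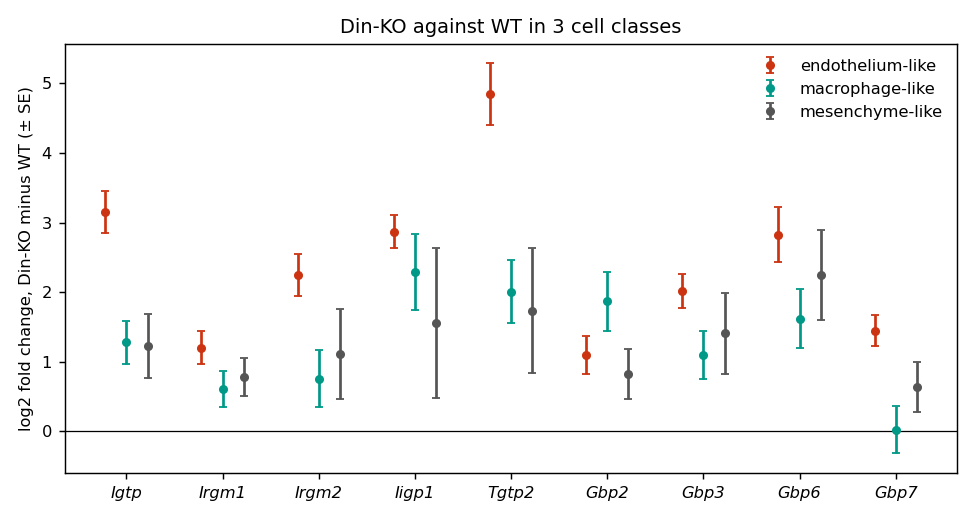
Log2 fold change of Din-KO against WT for each GTPase (y axis, points with standard errors) in endothelium-like, macrophage-like and mesenchyme-like cells, with 2 libraries per genotype. Points in endothelium-like cells reach from 1.10 to 4.85, and Gbp7 in macrophage-like cells lies at 0.023.

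Mesenchyme-like cells, which include the dental pulp, had lower levels and libraries that lay further apart. In sum the 9 were at 69.4 and 37.1 CPM in WT and 161 and 74.1 CPM in Din-KO. WT replicate 1 and Din-KO replicate 2 therefore lay close together. The median log2 fold change was 1.23 over the 9, all of which passed the filter, with a range from 0.63 (Gbp7, standard error 0.36) to 2.25 (Gbp6, standard error 0.65), and the median over all genes was -0.022. Groups did not overlap for 6 of the 9 (all but Iigp1, Irgm2 and Tgtp2), where 12.6% of 15005 genes had Din-KO entirely above WT. Without Din-KO replicate 1 the median was 0.45, and without WT replicate 2 it was 0.79. In Xist cells alone it was 1.81, with 5 members that did not overlap. With CPM scaled by TMM 5 members did not overlap. The share over all genes was not counted in either case, so nothing is read from these counts.

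Iigp1 differed widely by replicate number in these cells. It was at 16.8 CPM in WT replicate 1 and 2.63 CPM in WT replicate 2, and at 47.4 and 11.7 CPM in the Din-KO libraries. Tgtp2 likewise stood at 2.64 and 0.854 CPM in WT and 9.59 and 2.42 CPM in Din-KO. Irgm1 varied less, at 15.2 and 11.2 CPM in WT and 26.9 and 19.8 CPM in Din-KO (log2 fold change 0.78, standard error 0.28). Within each replicate number all 9 members were higher in Din-KO than in WT, and the summed level was 2.32 and 1.996 times as high. Since that contrast chose the members, and the share over all genes was not counted, nothing is read from this. Macrophage markers, all 10 detected in each library, summed to 599 and 327 CPM in WT and to 835 and 498 CPM in Din-KO mesenchyme-like cells, likewise higher in Din-KO within each number. Endothelial markers, all 9 detected, summed to 29.1 and 19.6 CPM in WT and to 44.2 and 37.3 CPM in Din-KO. Among cells with no UMI of 5 immune and endothelial markers (Ptprc, Tyrobp, Fcer1g, Cdh5 and Pecam1) the median was 1.15, with 6 members that did not overlap. The share over all genes was not counted among those cells either, so nothing is read from that count.

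Within the mesenchyme the median log2 fold changes were 1.17 in dental follicle-like and 1.16 in dental pulp-like cells, while the overlap between libraries was counted in each. In dental follicle-like cells, which had 282 to 406 cells in each library, all 9 members had Din-KO entirely above WT (14.8% of 12815 genes). They summed to 53.6 and 48.6 CPM in WT and 138 and 109 CPM in Din-KO. Irgm1 was at 15.2 and 14.8 CPM in WT and 27.6 and 26.7 CPM in Din-KO, and Iigp1 was at 5.89 and 2.31 CPM in WT and 28.5 and 16.6 CPM in Din-KO. Macrophage markers, all 10 of them detected in each library, summed to 609 and 260.4 CPM in WT and to 1066 and 655 CPM in Din-KO follicle-like cells, and their part in the result was not tested. In dental pulp-like cells the summed levels overlapped, at 88.9 and 52.3 CPM in WT and 228 and 86.2 CPM in Din-KO. Only Igtp, Irgm1 and Gbp6 did not overlap there, 3 of 9 (11.1% of 13401 genes), with 168 and 141 cells in the replicate 2 libraries. The difference between follicle-like and pulp-like cells was not tested. Odontoblast-like cells, which make dentin, had 14.75 and 10.4 CPM in WT and 33.9 and 16.03 CPM in Din-KO, and 3 members passed the filter there.

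Single cells were compared after thinning to 2000 UMIs. Of endothelium-like cells, 30.1% and 33.3% in WT and 66.9% and 64.9% in Din-KO held a UMI of any of the 9, out of 236, 102, 290 and 111 cells. UMIs of 2 or more different members were found in 8.47% and 10.8% of WT and 39.3% and 34.2% of Din-KO cells. In dental follicle-like cells a UMI of any member was found in 11.04% and 9.65% of WT and 23.1% and 20.3% of Din-KO cells. The epithelium-like class, given above, had at most 2.80%. In mesenchyme-like cells the 5% of cells with most members' UMIs held 54.7% and 63.4% of them in WT and 55.6% and 47.6% in Din-KO. Before thinning 72.8% and 75.5% of WT and 89.7% and 93.8% of Din-KO endothelium-like cells held one, with medians of 8283 to 9772 UMIs per cell.

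The rest of the interferon pathway was taken from lists of 129 other genes, of which 114 had a UMI in the kept cells. In mesenchyme-like cells edgeR called 0 of the 93 tested, and 0% of all 15005 genes, as different between the genotypes (188 genes and 28 of the 93 had an unadjusted p under 0.05, all 28 of them higher in Din-KO). DESeq2 called 7 of the 93 higher and 0 lower (20 of all genes), and edgeR with the replicate number as a block called 25, all higher (135 of all genes). The fit without the block counts the spread between replicate numbers as error. Its 0 calls therefore do not show that the genotypes were alike. No label gives the replicate number as a batch, and the block leaves very few libraries to estimate error from. The lists were also made with earlier results of these data known, so nothing is read from calls of list genes, here or in the classes below. In endothelium-like cells edgeR called 0 of 95 (0.054% of all 11103 genes, 60 of the 95 and 325 of all genes with an unadjusted p under 0.05). DESeq2 called 29, all higher (56 of all genes), and the block called 57, all higher (246 of all genes). In macrophage-like cells edgeR called 1 of 102 (0.0736% of all 10873 genes). That gene, named after its values were seen, was Oasl1, which went from 9.58 and 8.98 CPM in WT to 61.7 and 65.4 CPM in Din-KO (log2 fold change 2.81, standard error 0.29, adjusted p = 0.03764 from edgeR). DESeq2 called 23 there, all higher (54 of all genes), and the block called 51 higher and 1 lower (394 of all genes).

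Ligands had few UMIs. Of 12 ligand genes 5 had a UMI in the kept cells. Ifng, the interferon that T and NK cells release, had 4 and 2 UMIs there in WT and 23 and 5 in Din-KO. Of these, 4, 2, 21 and 5 were in T or NK-like cells. The libraries differed in the number of those cells, with 17 and 21 in WT and 62 and 31 in Din-KO. Those cells held only 134583 and 169269 UMIs of all genes in WT and 382494 and 202454 in Din-KO. The few Ifng UMIs therefore do not show a low level per cell. Il27, a cytokine of antigen-presenting cells, had 10 and 9 UMIs in WT and 37 and 9 in Din-KO, and Ifnz had 12 and 0 in WT and 6 and 1 in Din-KO. Ifnk had 1 UMI in all. Ifnb1, named after its values were seen, had 3 UMIs in Din-KO replicate 1 and 0 in the other libraries. The median log2 fold change of the receptors was -0.077 in mesenchyme-like and 0.064 in endothelium-like cells. Ifngr1, a chain of the interferon-gamma receptor, was at 179 and 101.5 CPM in WT and 158 and 96.8 CPM in Din-KO mesenchyme-like cells. Ifnar1, Ifnar2 and Ifngr2 had fold changes between -0.27 and -0.068 there.

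For kinases, STAT and IRF factors the median was 0.57 in mesenchyme-like and 0.83 in endothelium-like cells. The 4 most abundant in mesenchyme-like cells (Jak1, Irf2, Stat3 and Irf3) had values from -0.089 to 0.28. Inhibitors had medians of 0.54 and 0.22, with Pias1, Ptpn2, Socs3 and Socs1 at -0.16 to 0.93 in mesenchyme-like cells. Medians for the antiviral genes were 1.41 and 1.83, and Bst2, which tethers viruses to the cell surface, was at 38.0 and 18.5 CPM in WT and 179 and 77.9 CPM in Din-KO mesenchyme-like cells. Isg15 and Lgals3bp had fold changes of 2.55 and 1.21 there, and Samhd1 had -0.11.

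The other IRG and GBP genes had medians of 1.27 and 2.04. Both Din-KO libraries were above both WT libraries for 5 of 10 tested in mesenchyme-like cells (12.6% of all 15005 genes). In endothelium-like cells they were for 10 of 11 (11.9% of all 11103 genes). The lists were made with earlier results of these data known, so nothing is read from these counts. Irgq, a distant relative of the IRG genes, had 0.051 in mesenchyme-like cells, while Ifi47, Gm4951 and Gbp2b had 1.10, 1.43 and 1.06. For MHC class I and peptide loading the medians were 0.63 and 1.46. B2m and H2-D1 had 0.94 and 1.32 in mesenchyme-like cells, and the proteasome activators Psme1 and Psme2 had 0.011 and -0.098. For MHC class II the medians were 1.16 and 1.70, with H2-Ab1, H2-DMb1, Cd74 and H2-DMa at 0.27 to 1.95 in mesenchyme-like cells. Of the chemokines, Cxcl10 was at 1.13 and 0.920 CPM in WT and 10.8 and 13.9 CPM in Din-KO mesenchyme-like cells. Ccl5 and Cxcl9 were at most at 1.24 CPM in a library there. Autophagy and inflammasome partners had medians of -0.0026 and 0.19, with Map1lc3b, Gabarapl2, Sqstm1 and Atg3 between -0.14 and -0.0026 in mesenchyme-like cells.

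**Figure D5:**
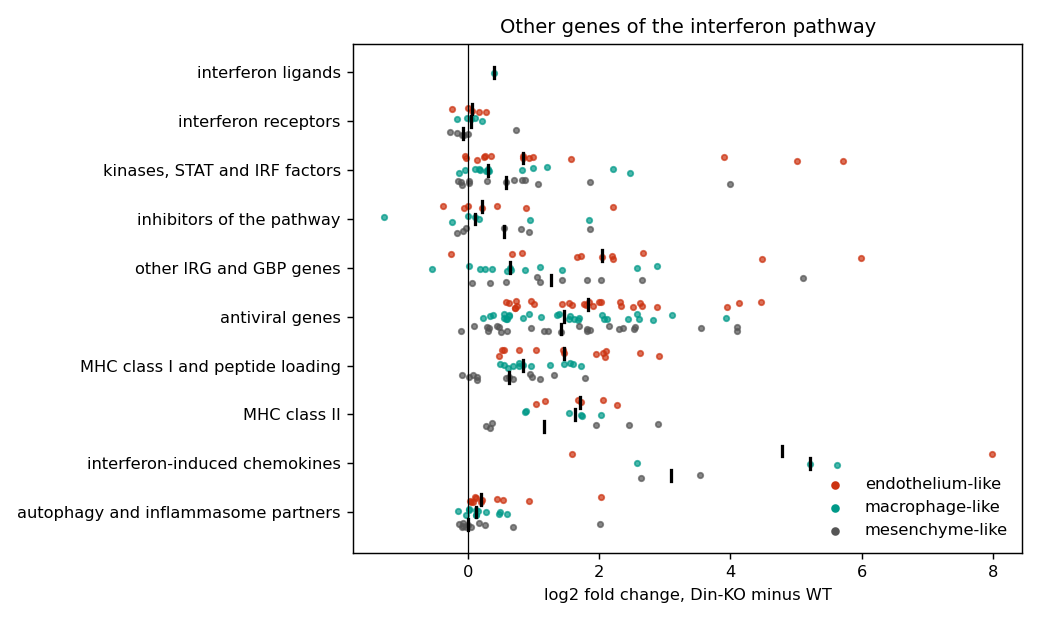
Log2 fold change of Din-KO against WT (x axis) for each tested gene of 10 lists of the interferon pathway in 3 cell classes, 1 point per gene and a black bar at the median. Medians of receptors and autophagy partners lie near 0, with single genes further out, and antiviral genes have medians of 1.41 in mesenchyme-like and 1.83 in endothelium-like cells.

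Over 20 sums (5 classes in 4 libraries) the members varied together. Pearson's r between members on the log2(CPM + 1) scale had a median of 0.87 over 36 pairs, from 0.64 to 0.95. The 20 sums share libraries and classes and include Din-KO, where the genes were chosen for being high. A shared rise is thus in part built in by the choice, also for the genes most like their mean. Values of r between other pairs of genes were not computed, so these are descriptions. Among 13419 genes compared, those outside the 9 that were most like their mean included Usp18 (r = 0.97), Bst2 (0.95), Irf9 (0.93), Rnf213 (0.93), Snx9 (0.92), Gbp5 (0.92), Ube2l6 (0.92), Il3ra (0.91) and Rtp4 (0.91). Usp18 removes ISG15 and restrains interferon receptors, and Irf9 is part of a factor that carries the interferon signal to DNA.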

How the data were processed

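The authors deposited raw UMI counts for each barcode, which they made with Cell Ranger 6.0.2 against mm10/GRCm38 (per the file headers and the submitters' processing notes). Reads that map to several genes are not counted, so near-identical genes lose counts. Free RNA was not removed.

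Cells were filtered as stated in the report, integrated in Seurat 5.3.0 with the cell cycle regressed (2000 variable genes without interferon and sex genes, 30 components, resolution 1) and clustered. A cluster took the class with the highest mean share of cells holding its markers, with at least 3 markers detected. It stayed unnamed where its 10 leading genes held more markers of another class than of its own. A cluster of low depth with no own marker among them would also have stayed unnamed. The scoring rule was set with the data in hand. Of 32 clusters 2 were unnamed. No doublet caller was applied, and alternatives removed cells with most UMIs or with UMIs of other types.

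UMIs summed per library and class were fitted in edgeR 4.0.16 (quasi-likelihood test on TMM-scaled libraries after filterByExpr, with Benjamini-Hochberg adjustment at 0.05), tested on simulated data. DESeq2 1.42.0 was an alternative. The library is the replicate, and with 2 per group p-values measure the spread between these libraries. CPM are UMIs per 1000000 UMIs of the class sum. Standard errors are the absolute log2 fold change divided by the square root of the F value of the edgeR test. They may understate the error where counts are few, as for Tgtp2 in WT endothelium-like cells. Intervals were not computed, and floors (3 UMIs) cover counting error only.

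The members and lists were chosen with earlier results of these data known. Named were the 9 members, the 4 genes of each list with most CPM in mesenchyme-like cells, and the 10 genes most like the members' mean, with exceptions marked. Of the last, 1 is not reported here. Alternatives were other size factors, testing without the low-count filter, leaving out each library, a replicate block, other cell selections and other clusterings. Paper supplements were not used.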

Additional observations from a re-analysis of the deposited data

Results flagged for a closer look

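The barcodes outside the cell filters entered no main comparison, though the alternative with at least 500 genes per cell took in some of them. Over all barcodes outside the filters the 9 GTPases summed to 162 CPM in Din-KO replicate 1 (1196 UMIs). They summed to 67.8 CPM in Din-KO replicate 2 (738 UMIs), both above the 67.1 and 58.5 CPM of WT replicates 1 and 2. Din-KO replicate 2 and WT replicate 1 were close. These barcodes hold few genes, much mitochondrial RNA or hemoglobin, and were not assigned to a class for these sums.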

How the results depend on the processing

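In mesenchyme-like cells the median log2 fold change of the 9 members was 1.23. It ran from 0.45 (without Din-KO replicate 1) to 1.66 (without Din-KO replicate 2) when each library was left out, was 1.81 in Xist cells only and 0.52 in odontoblast-like cells only, and stayed positive under every alternative. The count of members that did not overlap was 6 (12.6% of all genes). It was 3 in dental pulp-like cells only (11.1%) and 2 in odontoblast-like cells only (11.9%), where 3 members passed the filter. Leaving out a library can only keep or raise that count (6 to 9), so it says nothing about stability. Those 2 selections, dental follicle-like cells, the Vcan-led cluster and CPM scaled by TMM were chosen after seeing the data. Calls of members higher in another class (20) were 11 in the WT libraries alone, where 32 pairs were tested, Din-KO does not enter and several folds were smaller too, and ran from 17 to 20 with each library left out. Calls for lower stayed at 9 with each library left out and were 7 in the WT libraries alone.

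Of the other pathway genes in mesenchyme-like cells edgeR called 0, but 2 without the filter on low counts, 7 with DESeq2 and 25 with the replicate block, all higher in Din-KO under DESeq2 and the block. The cause was not tested, and the lists were made with earlier results of these data known. Libraries of the same replicate number deviated together from the group means. The correlation r was 0.77 over 15005 genes in mesenchyme-like cells and 0.49 over 11103 genes in endothelium-like cells. No label gives a shared batch. Library names do differ in scheme between the replicate numbers, and what that marks is not stated. With the replicate block the median of the members was 1.20, and the other pathway genes called were 57 in endothelium-like cells (0 without) and 51 higher and 1 lower in macrophage-like cells (1 without). A library left out leaves 1 sample in a group, assumed to vary like the other group. Tgtp2 in WT endothelium-like cells rests on 4 and 1 UMIs. In epithelium-like cells no member passed the filter, at 2821092 to 4466696 UMIs per library.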

Other observations

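Summed CPM of the 9 GTPases in the remaining classes and unnamed clusters were as follows. T or NK-like cells (17, 21, 62 and 31 cells in WT replicates 1 and 2 and Din-KO replicates 1 and 2) had 141 and 230.4 CPM in WT and 384 and 346 CPM in Din-KO. Glia-like cells had 68.6 and 55.9 CPM in WT and 233 and 163 CPM in Din-KO. Neutrophil-like cells had 15.7 and 21.3 CPM in WT and 257 and 42.3 CPM in Din-KO. B-like cells, which entered the comparison of classes, had 53.55 and 55.8 CPM in WT and 204 and 137 CPM in Din-KO.

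The unnamed cluster led by Ccr2, H2-Eb1 and H2-Aa (325 cells) had 76.6 and 61.2 CPM in WT and 412 and 157 CPM in Din-KO, and Iigp1 had 0 UMIs there in both WT libraries. The unnamed cluster led by Vcan, Grik1 and Col9a3 (1208 cells) had 61.5 and 52.1 CPM in WT and 86.9 and 80.55 CPM in Din-KO. Its best class was mesenchyme, with all 12 markers of that list detected. It stayed unnamed because its 10 leading genes held 0 markers of mesenchyme and 1 of another class. That marker was Vcan, which is on the monocyte or dendritic list. Its median log2 fold change was 0.53 over the 7 members that passed the filter, against 1.23 in mesenchyme-like cells. With this cluster added to the mesenchyme-like cells that median was 1.15. Perivascular-like cells went both ways, from 61.9 to 228 CPM in replicate 1 and from 124 to 55.4 CPM in replicate 2, in 77 cells over the 4 libraries. Erythroid-like cells overlapped, at 46.8 and 88.85 CPM in WT and 16.9 and 102 CPM in Din-KO.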
